A study of Mus musculus with 8 samples.

Results

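N6-methyladenosine (m6A) peaks that touch the 5' untranslated region (5' UTR) were described in C2C12, a mouse myoblast cell line that proliferates in rich serum and forms multinucleated myotubes once serum is withdrawn. A peak belonged to this set when the region label that the peak lists give to it held the 5' UTR, alone or together with the coding sequence (CDS) and the 3' UTR. By this rule 5149 of 105669 distinct peak positions (chromosome, start, end, strand and exon blocks) were members, on 1206 of the 9153 genes with any peak. Cells were sampled while proliferating in growth medium with 10% serum (GM) or after 3 days in differentiation medium with 2% horse serum (3d DM), with 2 immunoprecipitated (IP) and 2 input libraries in each state. The labels name no other difference between the states than medium and time. They do not say whether replicates were separate cultures, so p-values measure the spread between these libraries, which may be technical. In MeRIP-seq, polyadenylated RNA is fragmented and the fragments bound by an antibody against m6A are compared with the input of the same sample. Each of the 4 peak lists was made from 1 IP library and its input, and was treated as 1 replicate.

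m6A is placed mainly by the METTL3-METTL14 methyltransferase at adenosines in the sequence DRACH (D is A, G or T, R is A or G, and H is A, C or T), most often near stop codons and in long exons. In the 5' UTR, where ribosomes are loaded and scan to the start codon, m6A has been linked to translation that depends less on the cap-binding complex, for example after stress. Antibodies against m6A also bind m6Am, a related mark on the first transcribed base next to the cap, which the methyltransferase PCIF1 places, so signal at the very start of an mRNA may come from either mark.

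Read numbers are not part of the lists, so IP depth is unknown and a peak that is missing from a list was only not called there. The input table is a normalized signal with the same total in every library, and a single row without a matched gene symbol took 24.4% to 41.3% of that total. The state of the cells was checked with markers. Myog, the regulator that starts terminal differentiation, had input values of 1008 and 221 in growth medium and reached 5392 and 11502 after differentiation, and Mki67, a marker of dividing cells, went from 3586 and 3659 to 446 and 760. Summed over 18 contractile genes the input signal of GM replicates 1 and 2 was 25289 and 9352 and that of 3d DM was 241013 and 281607, so that GM replicate 1 held more muscle RNA than GM replicate 2. The part of this difference in the results was not tested. In bulk RNA, fewer cells of a type and less RNA per cell cannot be told apart.

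To show what the peaks cover, DRACH sites were looked up in the stretch of 5' UTR that lay under a 5' UTR peak in every list that held that gene's peak. Of 44 genes chosen by the rules given under the processing of the data, 32 had such a site that could be shown with 8 bases on either side in the same exon, and for 25 of them it began with GGAC, the commonest form of the methylated sequence. The sequence is that of the mRNA, 5' to 3', with T for U, from GENCODE release M21 on mm10, and the capitals mark the DRACH site. GGACT was taken before other GGAC sites and these before other DRACH sites, and the site nearest to the start codon was taken where several remained. The count of GGAC therefore follows in part from this order, and the display does not rank sites by methylation. The first set comes from genes of high fold and the second from genes of muscle differentiation, signalling and m6A reading. Every site printed below begins with GGAC, and sites of other forms are not printed. Among the genes of high fold these were Basp1 (AAACA), Pomgnt1 (GAACT) and Tsc22d1 (GAACC).

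Hoxc4: ttatccggGGACTgggttgct
St3gal2: gctgagatGGACTgacctctg
Snx33: tgcccaaaGGACTtggtaggg
Foxc1: ccggactcGGACTcggcggcc
Zfp30: gcagccccGGACTggtaactg
Ybx1: cggagagcGGACCccagagag
Myod1: ttgaggctGGACCcaggaact
Mef2a: gcagccctGGACTagaaggtt
Tgfb3: attttttgGGACCcagccatc
Ythdc1: tgacggacGGACTcgtgcgcc

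The Hoxc4 window lies at chr15:103034578-103034598 on the plus strand in exon 1, with the adenosine 135 nt before the start codon. Those of St3gal2 (chr8:110957401-110957421, plus strand, exon 2) and Snx33 (chr9:56926902-56926922, minus strand, exon 1) lie 301 and 129 nt before it. The Foxc1 window is at chr13:31807116-31807136 on the plus strand in exon 1, the Zfp30 window at chr7:29784488-29784508 on the plus strand in exon 1, and the Ybx1 window at chr4:119294460-119294480 on the minus strand in exon 1, with distances of 82, 435 and 107 nt. The Myod1 window is at chr7:46376647-46376667 on the plus strand in exon 1, 16 nt before the start codon, and the Mef2a window at chr7:67316941-67316961 on the minus strand in exon 3, 106 nt before it. The Tgfb3 window (chr12:86078375-86078395, minus strand, exon 1) was 453 nt and the Ythdc1 window (chr5:86804466-86804486, plus strand, exon 1) 88 nt away. All windows lie wholly within the 5' UTR. The shared stretch held 1 DRACH site in Hoxc4 (over 60 nt) and in Zfp30 (over 31 nt), against 10 in St3gal2 (270 nt) and 8 in Snx33 (180 nt), so that in the first pair of genes the shown site is the only DRACH site that every list covers.

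Peaks touching the 5' UTR were a small share of each list, and the share was larger in GM. GM replicates 1 and 2 had 5.39% and 5.24% of their distinct positions in the set (1638 of 30412 and 1352 of 25820), and 3d DM replicates 1 and 2 had 4.63% and 4.53% (1406 of 30399 and 1044 of 23040). The groups did not overlap and differed by 0.73 percentage points, the GM mean being 5.31 ± 0.11% and the 3d DM mean 4.58 ± 0.07% (SD, n = 2 libraries each; two-sided exact permutation test, p = 0.33, the smallest that 2 libraries against 2 allow). Genes with such a peak numbered 792 and 685 in the GM lists and 679 and 493 in those of 3d DM.

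Most of these peaks ran over the start codon. A line in the lists is a peak on 1 transcript, and 62.9% to 64.6% of member lines were labelled 5' UTR and CDS, 21.4% to 26.7% were labelled 5' UTR alone, and 10.0% to 14.0% held all 3 regions. Lines of the 5' UTR alone numbered 374 and 330 for GM and 384 and 227 for 3d DM, so the states overlapped.

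**Figure D1:**
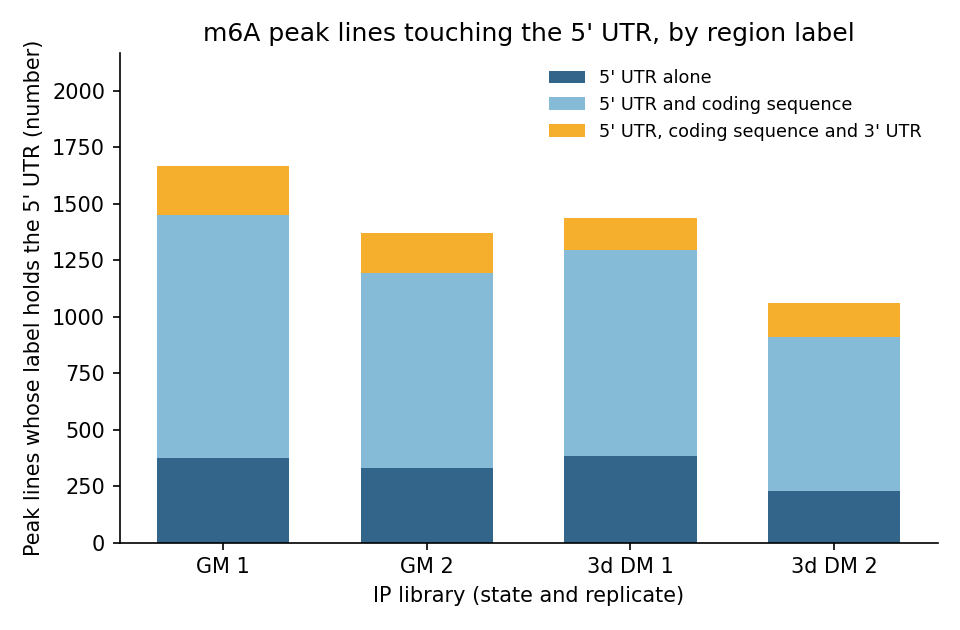
Number of peak lines (y axis) whose label holds the 5' UTR in each IP library (x axis), stacked by region label. Lines of the 5' UTR and CDS are the largest part in all 4 libraries, and 3d DM replicate 2 has the fewest lines, 1059 against 1372 to 1667 in the others.

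Members often lay in merged peaks that also held lines of other labels. Lines on the same strand that shared exonic bases were merged over the 4 lists, which gave 1295 merged peaks with at least 1 line in the 5' UTR, among 19516 in all. In 54.0% of these the merged peak also held a line that was labelled without the 5' UTR, and 46.9% of all lines in them were labelled with it. Lines were joined in chains, so such a line need not overlap the 5' UTR line itself. Only 257 were labelled 5' UTR in all 4 lists. Among the 1295, 25 covered more than 1 gene symbol, where reads of overlapping genes could not be assigned. A line of any label stood in all 4 lists for 567 of them (43.8%), against 30.6% of all merged peaks. A label in 1 list was enough for membership, so merged peaks with lines in more lists had more chances to be members.

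Placed on GENCODE transcripts, 94.7% to 95.6% of member lines had a matching model, and the region computed from it was the deposited label for 99.5% to 99.7% of them. The typical member began well inside the transcript and had most of its length in the CDS. The median distance from the transcript start to the peak was 178 and 149 nt for the GM libraries and 179 and 150 nt for 3d DM. A median of 33.2% and 40.3% of the peak in GM and of 38.5% and 34.5% in 3d DM lay in the 5' UTR, that is 91, 101, 98 and 90 bases. Between 36.1% and 41.0% of peaks lay within a single exon, so the majority crossed a splice junction. The 5' UTRs of these transcripts had median lengths of 307 to 351 nt, and those of transcripts with a peak in the 5' UTR alone were longer, with medians of 521 to 591 nt.

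Peaks that start on the first bases of the mRNA were a minority. The peak began in the first 50 nt for 17.5% and 16.7% of positions in GM and for 15.1% and 17.5% in 3d DM (17.1 ± 0.5% against 16.3 ± 1.8%, n = 2; two-sided exact permutation test, p = 1.0), so the states could not be separated. It began on the first base for 7.72% to 9.03%. Where it did, with 1 line per merged peak, the annotated first base was A in 22.6% and 20.0% of 62 and 50 peaks in GM and in 27.3% and 21.9% of 44 and 32 peaks in 3d DM, against 22.2% to 25.7% over all members. The annotated start was not checked against the start used in these cells.

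Coverage along the mRNA rose to the start codon and fell again behind it. With 1 line per merged peak, the first base of the start codon was covered by 76.3% and 74.2% of members in GM and by 72.8% and 78.2% in 3d DM, the maximum in each library. The labels fix part of this, since every peak that touches both 5' UTR and CDS has to cover the boundary. The midpoints are less bound to it and lay downstream of the start codon for 54.6% to 61.1% of distinct positions, with medians of 21 to 49 nt into the CDS.

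**Figure D2:**
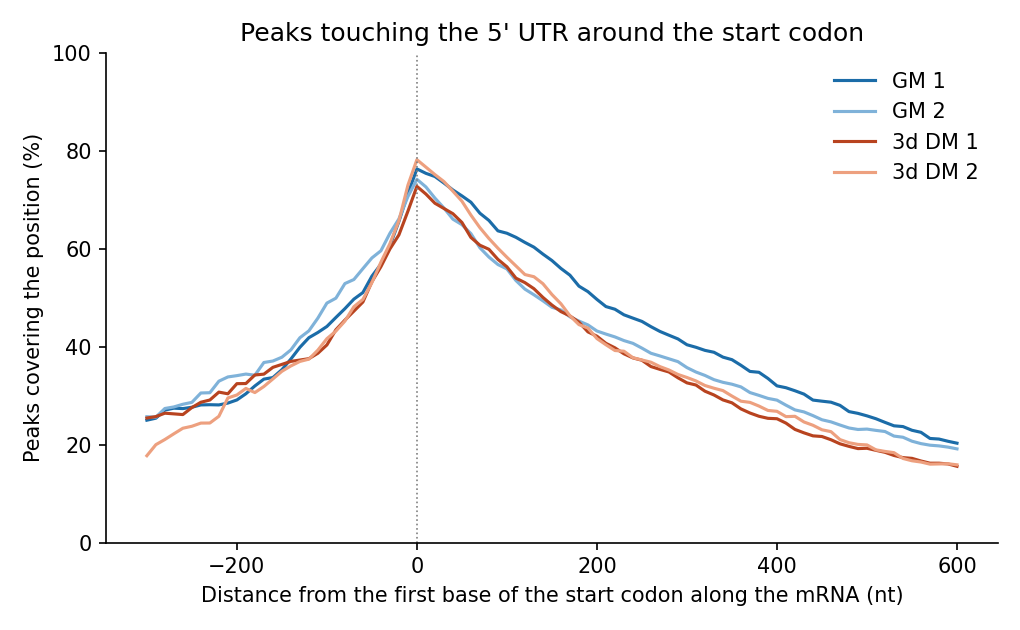
Share of peaks touching the 5' UTR (y axis, percent, 1 line per merged peak) that cover each position relative to the start codon along the mRNA (x axis, nt), with a line per IP library. All 4 curves have their maximum at the start codon, between 72.8% and 78.2%, and fall more slowly into the CDS than into the 5' UTR.

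Peaks that held all 3 regions were those of short mRNAs. Their transcripts had median lengths of 1598 and 1537 nt in GM and 1149 and 1112 nt in 3d DM, and the peak covered a median of 62.6% to 72.4% of the RNA. For 5' UTR and CDS peaks the transcripts had medians of 2466 to 2727 nt, of which the peak covered 14.6% to 16.7%. Vamp5 and Ranbp1, which are described with the input RNA, were of this kind in all 4 lists.

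Member peaks were about as strong as other peaks. The fold enrichment, the ratio of IP over input that the peak caller gave, had medians of 4.37 and 4.36 in GM and of 3.84 and 4.37 in 3d DM, against 4.37, 3.91, 3.70 and 4.07 for peaks touching no 5' UTR. The difference within a library was 0.08 ± 0.07 on the log2 scale (mean ± SD, n = 4 libraries; two-sided exact sign-flip permutation test, p = 0.25, where 0.13 is the smallest possible), being 0 in GM replicate 1 and above 0 in the other libraries. Member positions had a median width of 330 and 299 exonic bases in GM and of 299 in both 3d DM libraries, against 267, 241, 241 and 210 for the rest, a log2 ratio of 0.36 ± 0.10 (n = 4; exact sign-flip permutation test, p = 0.13, the smallest possible). This held for the set as a whole, while positions labelled 5' UTR alone were narrower than the rest, with a median of 150 bases in every library and a log2 ratio of -0.67 ± 0.14 (n = 4; exact sign-flip permutation test, p = 0.13).

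Within the set, folds of the 5' UTR alone class were higher in replicates 2 of both states than in replicates 1, which was not tested. Its median fold was 5.11 in GM replicate 2 and 4.80 in 3d DM replicate 2, against 4.28 and 3.44 in replicates 1 of GM and 3d DM. Few positions of this class had a low peak p. A p under 1e-05 (exomePeak) was reached by 23.6% to 31.5% of them, against 61.9% to 68.3% of all members. A fold of at least 10 was reached by 27.7% and 25% of the positions of this class in replicates 2 of GM and 3d DM, and by 15.6% and 9.51% in replicates 1. The GC content of the 5' UTR part of the peaks followed the same division, with 63.8% and 63.1% in replicates 2 and 58.8% and 56.8% in replicates 1. Its part in the folds was not tested. Peaks of all 3 regions had medians of 4.54 to 5.41, the highest of the 3 labels in 3 of the 4 libraries.

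**Figure D3:**
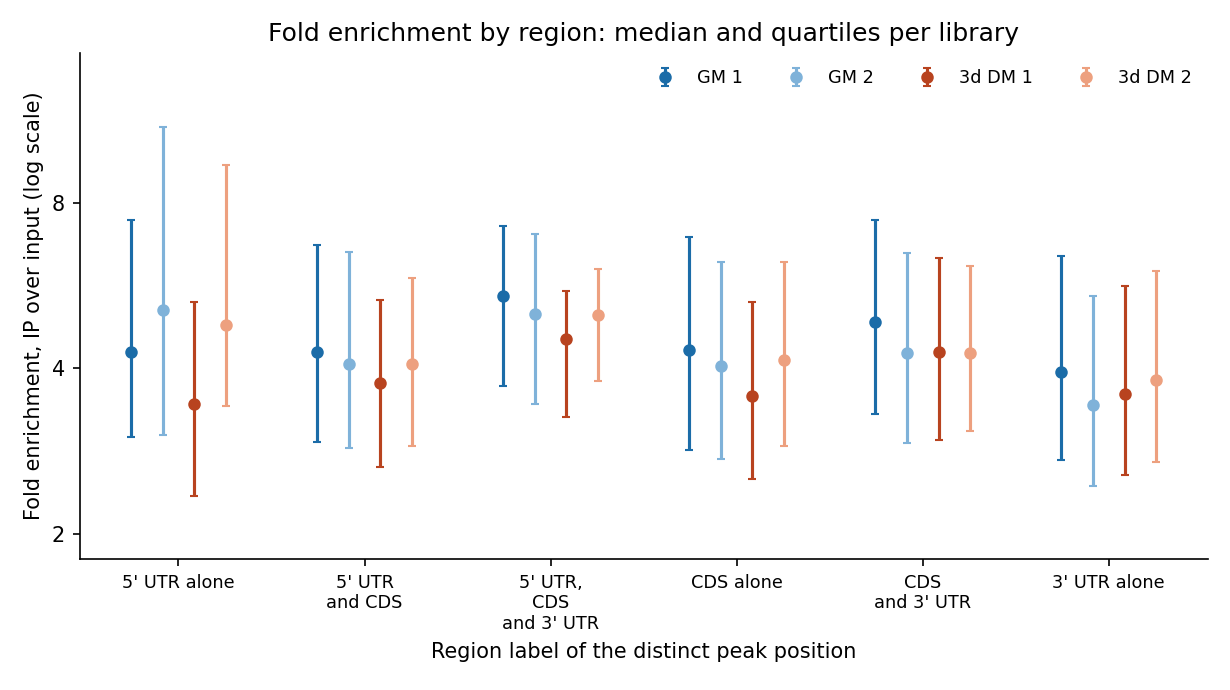
Fold enrichment of IP over input (y axis, log scale) by the region label of distinct positions (x axis) in the 4 IP libraries. Points are medians and bars run from the lower to the upper quartile, and the upper quartile of the 5' UTR alone class reaches 11.0 in GM replicate 2 and 9.39 in 3d DM replicate 2 but 7.44 and 5.29 in replicates 1.

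Where a gene also had a peak elsewhere, the 5' UTR peak was the stronger in about as many genes as the other. Between 59.6% and 67.9% of the genes had a further peak that shared no bases with the 5' UTR peak. Among them the largest 5' UTR fold was above the largest other fold in 47.0% and 57.6% of genes in GM and in 44.0% and 56.5% in 3d DM. Replicates 2 of both states were above 50% and replicates 1 below it.

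The 5' UTR peaks of highest fold found in every list were on genes of several kinds. Values are the largest fold of a 5' UTR line in GM replicates 1 and 2 and then in 3d DM replicates 1 and 2. Equal folds did not mean equal support. In GM replicate 1 Hoxc4, Pomgnt1 and St3gal2 all had a fold of 17.5. Their lowest p from the peak caller (exomePeak) was 3.7e-05, 3.7e-05 and 6.3e-46. Input values of Hoxc4 were low, between 49.2 and 105. Hoxc4, a homeobox transcription factor of axial patterning, had folds of 17.5 and 18 in GM and of 7.05 and 25.9 in 3d DM, in a span of chr15:103034158-103034809. Zfp30, a zinc finger protein of the nucleus, had 15.7 and 11 and then 6.88 and 15.9 at chr7:29784352-29784860, always in the 5' UTR alone and with no other peak in the gene, at input values between 14.1 and 61.4. Pomgnt1, an enzyme of the O-mannose glycosylation on which alpha-dystroglycan depends, had 17.5 and 18 and then 8.11 and 10.9 at chr4:116137267-116137714, also in the 5' UTR alone in each list. The Pomgnt1 folds did not overlap between the states, and those of Hoxc4 and Zfp30 did.

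St3gal2, a sialyltransferase, had folds of 17.5 and 27.6 in GM and of 12.8 and 6.75 in 3d DM, which did not overlap. Snx33, a sorting nexin of endocytosis, had 18.4 and 7.43 and then 19 and 15. Foxc1, a forkhead transcription factor, had 5.37 and 22.7 and then 13.2 and 13.4. The ranges of both genes overlapped between the states, and in Foxc1 the libraries of GM lay outside those of 3d DM on either side.

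Basp1, a membrane protein best known from growing neurons, had 9.21 and 45.1 in GM, then 6.41 and 30.2 in 3d DM. Ybx1, a Y-box protein that binds RNA and DNA, had 14 and 16.1 and then 4.5 and 19.9. Tsc22d1, a leucine zipper protein induced by TGF-beta, had 12.2 and 25 and then 3.23 and 18.4, and Ankrd40 had 5.65 and 25.8 and then 5.81 and 14.2. In all 4 genes the lower value of each state was that of replicate 1.

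Over the 262 genes with a 5' UTR peak in all 4 lists the geometric mean fold had a median of 4.89 (quartiles 3.41 and 6.68). The largest and the smallest fold of a gene differed by a median of 1.07 on the log2 scale, and by under 1 for 120 genes (45.8%). Replicate 2 had the larger fold in both states for 97 genes and replicate 1 for 52. For 14 genes every line in every list was labelled 5' UTR alone, and 7 of these had no other peak, which were Fance, Ggnbp1, Il4i1, Man2a1, Trim17, Zfp30 and B430305J03Rik (counted and named after their values were seen).

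GGAC was denser under the peaks than in the rest of the same 5' UTRs, whereas in the 5' UTR DRACH as a whole was little more so than a rearranged form of it. Patterns were counted on the mRNA strand only, in the 5' UTR part of members and in the remaining 5' UTR of the same transcripts. DRACH occurred 19.9 and 18.0 times per kb under GM peaks and 21.1 and 19.8 under 3d DM peaks, against 15.9, 15.9, 16.7 and 15.8 in the rest, a log2 ratio of 0.29 ± 0.07 (n = 4 libraries; exact sign-flip permutation test, p = 0.13, the smallest possible). With the central A and C of the pattern exchanged, the log2 ratio was 0.24 ± 0.08, and DRACH exceeded it by 0.05 ± 0.05, with values from 0.001 in 3d DM replicate 1 to 0.11 in 3d DM replicate 2. Over the whole peak and the rest of the transcript the DRACH ratio was smaller, 0.09 ± 0.06 with 0.005 in GM replicate 2, and exceeded that of the exchanged pattern by 0.20 ± 0.02, in 4 of 4 libraries.

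GGAC, the core of the preferred sequence, occurred 6.50, 6.56, 6.12 and 7.10 times per kb under the peaks and 5.12, 5.19, 5.16 and 5.01 in the rest, and GGCA, with the same bases, occurred 5.0, 5.18, 4.59 and 5.0 times under the peaks and 4.77, 4.82, 4.58 and 4.95 in the rest. The log2 ratio was 0.36 ± 0.11 for GGAC and 0.05 ± 0.05 for GGCA, a difference of 0.31 ± 0.12 that was above 0 in 4 of 4 libraries (exact sign-flip permutation test, p = 0.13). Over the whole peak and the rest of the transcript the difference between GGAC and GGCA was 0.28 ± 0.04, again in 4 of 4 libraries. GGAC is contained in DRACH sites only where A, C or T follows, and it was counted with any base. Of 100-nt windows of the 5' UTR, 42.7% to 52.9% held GGAC under the peaks and 36.9% to 38.4% in the rest, and 77.7% to 84.9% held DRACH under the peaks against 74.2% to 76.8% in the rest. With 1 line per merged peak, the 5' UTR part held a DRACH site in 63.8% to 71.4% of members and the whole peak in 89.8% to 93.8%. A match is a description of sequence and not of a modified base.

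**Figure D4:**
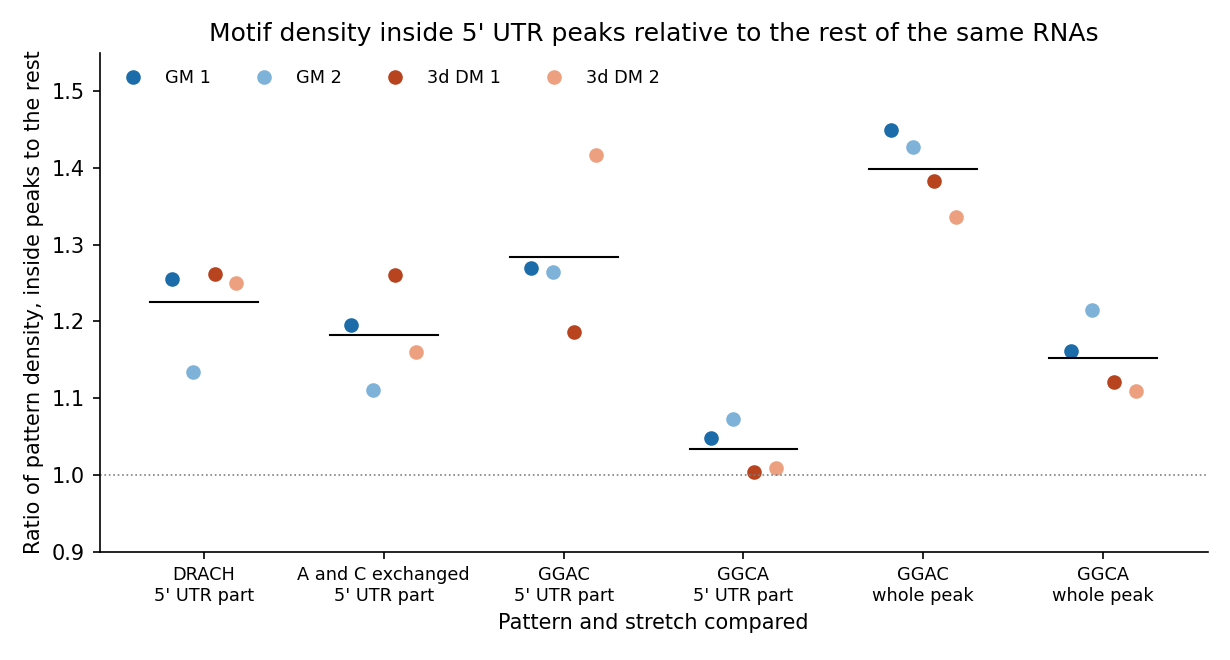
Ratio of the density of a pattern inside peaks touching the 5' UTR to that in the rest of the same RNAs (y axis, 1 means equal), for each pattern and stretch (x axis). Points are the 4 IP libraries and bars their mean. GGAC lies above GGCA in each library, and DRACH and its exchanged form, drawn for the 5' UTR part only, overlap there.

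A smaller share of genes had a 5' UTR peak in all 4 lists than had a peak of other regions. Of the 1206 genes, 262 (21.7%) had a 5' UTR peak in all 4 lists and 486 (40.3%) in a single list. For genes with a peak in the CDS alone 34.5% were in all 4 lists and 26.1% in a single list, and for peaks of the CDS and 3' UTR the shares were 32.7% and 28.2%, and for the 3' UTR alone 24.4% and 34.0%. These shares were not tested. The Jaccard index of the 5' UTR gene sets was between 0.385 and 0.492, with 0.492 for both GM lists and 0.433 for both 3d DM lists. Genes found in more lists also had more input RNA, since the median input value rose from 396 for genes in 1 list through 565 and 671 to 947 for genes in all 4, while the median fold stayed between 4.62 and 4.90.

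A 5' UTR peak in both lists of GM and in neither of 3d DM was found for 86 genes, and the opposite for 32. The same count over peaks of any region was 326 and 211 of 9153 genes, and over peaks of the CDS and 3' UTR 309 and 120 of 4716. Over the CDS alone it was 218 and 202 of 5669, and over the 3' UTR alone 245 and 258 of 5683. Divided by replicate number instead, 84 genes had a 5' UTR peak in both lists of replicate 1 only and 18 in both lists of replicate 2 only. Over any region these numbers were 390 and 132, and replicate 1 had the larger number in every region class. For 78 of the 86 GM genes (90.7%) and 27 of the 32 3d DM genes (84.4%) at least 1 list of the other state had a peak in the gene that was labelled outside the 5' UTR. For 57 (66.3%) and 13 (40.6%) that included a line of the same merged peak.

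The genes of 1 state with the highest folds show this. In GM, Slx4, a scaffold of DNA repair nucleases, had 5' UTR folds of 26.2 and 11.7, and lines of other labels reached 16.9 and 11.7 in 3d DM. Bola2, a protein of iron-sulfur cluster handling, had 18.4 and 11.7 in GM, and in 3d DM no peak in replicate 1 and another label with a fold of 2.69 in replicate 2. Taok3, a kinase, had 20.1 and 8.82 and Kif3c, a kinesin motor, 9.04 and 19.6, with lines of other labels up to 11.1 and 13.4 in 3d DM.

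In 3d DM, Mpp5, a scaffold of epithelial polarity, had 19.8 and 10, and Bptf, a chromatin remodelling subunit, 12.7 and 15.9. Adamts5, a protease that cuts proteoglycans, had 9.31 and 15, and Zfp322a, a zinc finger protein, 10.8 and 7.4. All 4 had lines of other labels in both GM lists, with folds between 4.81 and 24.5. None of the 8 genes was without a peak in the other state.

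No 5' UTR peak changed in strength between the states at the threshold. The largest fold per merged peak and list, over lines of any label, was compared with limma over the 5976 merged peaks present in all 4 lists, and 0 of the 567 members had an adjusted p under 0.05, as did 0% of all merged peaks (smallest adjusted p 0.85). At an unadjusted p under 0.05 there were 27 members (4.76%), of which 23 were stronger in GM, against 3.56% of all merged peaks. With each library centred on its median there were 18 of 567 members and 231 of all 5976, so the order of the shares turned. The median log2 difference (GM minus 3d DM) was 0.19 over members and 0.11 over all, and 0.08 and -0.003 after the same centring. The members' median was 0.08 without 3d DM replicate 1, 0.10 without GM replicate 1 and 0.33 without 3d DM replicate 2.

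The Kif3c peak had the lowest p. Both GM lists had high folds for it, 21 and 19.6, against 3.39 and 5.57 in 3d DM, without overlap, a log2 difference of 2.22 (SE 0.57; limma, adjusted p = 0.85). It was labelled 5' UTR in the GM lists only. Its 5' UTR lines had 9.04 and 19.6 there, and the 21 was that of a line of another label. Chtf8, a gene of a DNA replication clamp loader, had 9.03 and 10.2 and then 3.71 and 3.94, a difference of 1.33 (SE 0.47; adjusted p = 0.99, limma). Pkig, an inhibitor of protein kinase A, had 8.31 and 3.13 and then 1.51 and 2.14, and Pabpc4, a poly(A)-binding protein, 13.1 and 3.6 and then 1.97 and 2.9. In the merged peaks of Pkig and Pabpc4 the difference rested largely on GM replicate 1, and it was 0.80 and 0.59 without it. On 5' UTR lines alone Chtf8 had 8.97 and 5.48 and then 3.66 and 3.88, and Pkig 8.31 and 1.82 and then 1.51 and 2.07.

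Towards 3d DM, the merged peak of Nucks1, a chromatin protein of the nucleus, had 6.78 and 13.4 in GM against 66.7 and 28.4, a difference of -2.19 (SE 0.78; limma, adjusted p = 0.99). The high Nucks1 values were those of lines labelled outside the 5' UTR, and its 5' UTR lines had 6.78 and 4.54 in GM, none in 3d DM replicate 1 and 6.68 in replicate 2. Prkd3, a protein kinase D, had 2.99 and 3.39 and then 4.59 and 20. Ywhae, a 14-3-3 protein, had 9.19 and 2.28 and then 23.3 and 9.19, also mainly on lines of other labels. Plgrkt, a plasminogen receptor, had 3.72 and 3.41 and then 18 and 4.29, where the 18 was that of a line of another label. The 5' UTR lines of Plgrkt had 3.41 in GM replicate 2 and 2.45 in 3d DM replicate 1, with none in the other lists. Prkd3 had no 5' UTR line in GM replicate 2. For Prkd3 and Plgrkt a single 3d DM library carried the difference, which was -0.53 without 3d DM replicate 2 for Prkd3 and -0.27 without 3d DM replicate 1 for Plgrkt. For Ywhae it was -0.67 without GM replicate 2 and -1.01 without 3d DM replicate 1.

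The input RNA of genes with a 5' UTR peak changed about as often as that of other genes. The values were tested with limma on log2(value + 1), and a positive difference means a higher value in GM. Of the 1169 member genes that passed the minimum, 193 had an adjusted p under 0.05 (16.5%), 98 of them with more RNA in GM and 95 with more in 3d DM, beside 17.0% of all 11406 genes, with 9.96% called towards GM and 7.01% towards 3d DM. The median difference was 0.22 over members and 0.22 over all genes. After rescaling by median-of-ratios factors it was 0.01 for both, and 298 members (126 and 172) were called, beside 2670 of all 11406 genes. The number of calls rested on having 4 libraries and fell, among members and over all genes, with any library left out. The median difference was then -0.06 over members and -0.03 over all genes without 3d DM replicate 1, and 0.47 for both without 3d DM replicate 2. It was 0.32 and 0.34 without GM replicate 2, and 0.11 for both without GM replicate 1. Genes with a 5' UTR peak in all 4 lists had 30 calls of 256 (11.7%), 14 and 16 in the 2 directions. Rescaling by median-of-ratios factors gave 59 of 256 (23 and 36), beside 2670 of all 11406 genes, and leaving out a library gave from 3 (without 3d DM replicate 1) and 8 (without 3d DM replicate 2) to 12 (without GM replicate 2) and 16 (without GM replicate 1).

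Among genes with the peak in both lists of 1 state only, the called changes were all towards that state. For GM these were 17 of 84 genes (20.2%), all higher in GM, beside 9.96% of all 11406 genes called in that direction. For 3d DM they were 15 of 29 (51.7%), all higher in 3d DM, beside 7.01% of all genes. The sets were defined by peaks called in 1 state, and genes in more lists had more input RNA. The shared direction is therefore no independent result. The part of the RNA level in whether a peak was called was not tested. Without 3d DM replicate 1 the calls were 1 and 3, and with each of the other libraries left out they were 7 to 9 and 6 to 11, all in the same directions. After median-of-ratios rescaling 18 were called in each set, of which 1 of the GM set was higher in 3d DM.

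**Figure D5:**
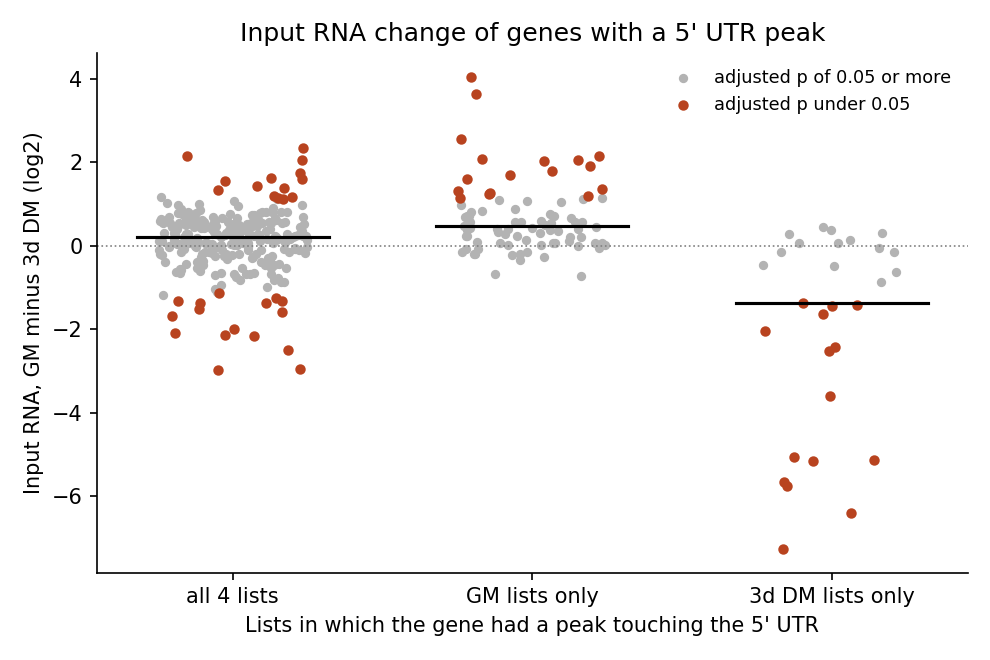
Input RNA difference (y axis, log2, GM minus 3d DM) of genes by the lists in which they had a peak touching the 5' UTR (x axis), with a point per gene, coloured where the limma adjusted p was under 0.05, and the median as a bar. All 17 called genes of the GM lists lie above 0 and all 15 of the 3d DM lists below 0, with medians of 0.46 and -1.38. Over all 11406 genes 9.96% were called towards GM and 7.01% towards 3d DM.

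The genes behind these counts were singled out after their values were seen. On the side of 3d DM, Unc45b, a chaperone of muscle myosin, had input values of 22.4 and 1.02 in GM and of 857 and 1318 in 3d DM (difference -7.27, SE 0.53). Mybph, a myosin-binding protein, had 231 and 60.2 and then 7459 and 13608 (-6.40, SE 0.43). The troponins Tnnc2 and Tnnt3, the giant filament protein Neb, the calcium-binding protein Hrc of the sarcoplasmic reticulum, Ankrd23 and Trim54 of the sarcomere had differences of -5.75, -5.67, -5.07, -5.15, -5.16 and -3.60. All 8 had an adjusted p of 3.9e-13 or less (limma). The other called genes were Palld, Stk17b, Adamts5, Ldlrad4, Zfp322a, Armcx1 and Dyrk2, with differences from -2.53 to -1.38. Of the 15, Tnnt3 and Neb are in the list of contractile genes.

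On the side of GM, Hmga2, a chromatin protein of growing cells, had 2362 and 3218 in GM, then 161 and 168 in 3d DM (difference 4.06, SE 0.44). Slbp, which binds histone mRNA, Spc24 of the kinetochore and Tmpo of the nuclear lamina were higher in GM by 2.16, 2.04 and 1.92. Id1, an inhibitor of myogenic bHLH factors, had 292 and 641 and then 99.5 and 205 (difference 1.59, SE 0.47; limma, adjusted p = 0.0057), a change that was not called after median-of-ratios rescaling (adjusted p = 0.087). The remaining called genes were Gap43, Fam111a, Lyar, Tcf19, Ywhah, Tes, Arf6, Nmt2, Dap, Snai2, Nudc and Hsp90b1, with differences from 3.64 to 1.16.

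Among genes with the 5' UTR peak in all 4 lists, those with the largest called changes in RNA towards 3d DM were Vamp5, Tpm2, Tgfb3 and Pkig, and those towards GM were Arhgap11a, Dek, Ranbp1 and Pabpc1. Vamp5, a vesicle protein of muscle, had input values of 209 and 144 in GM, then 1251 and 1514 in 3d DM (difference -2.98, SE 0.44; limma, adjusted p = 8.9e-10), with 5' UTR folds of 10.5, 11.8, 6.52 and 10.9. Tpm2, a tropomyosin of the thin filament, had 4015 and 2747 and then 24225 and 27473 (-2.96, SE 0.40; limma, adjusted p = 1.1e-11), with folds of 6.38, 5.57, 5.09 and 5.57. Tgfb3, a TGF-beta ligand, had 482 and 248 and then 1582 and 2401 (-2.49, SE 0.43), with folds of 4.87, 5.35, 4.85 and 5.79. Pkig, named above, had 929 and 416 and then 2503 and 3123 (-2.17, SE 0.42).

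In the other direction, Arhgap11a, a GTPase-activating protein, had 856 and 1176 in GM, then 132 and 296 in 3d DM (difference 2.34, SE 0.45), with folds of 7.67, 7.56, 12 and 10. Dek, a chromatin protein, had 2017 and 2093 and then 390 and 548 (2.15, SE 0.43), with folds of 6.07, 5.15, 5.42 and 19.2. Ranbp1, a partner of the Ran GTPase, had 2863 and 3083 and then 638 and 806 (2.05, SE 0.42), with folds of 3.48, 5.77, 3.28 and 2.91. Pabpc1, the main cytoplasmic poly(A)-binding protein, had 20295 and 18239 and then 5040 and 6509 (1.75, SE 0.40; limma, adjusted p = 0.00019), with folds of 1.97, 3.98, 1.6 and 4.51. The genes of both directions were chosen for large called changes in input RNA, so the separation of their input values is no independent result. None of the merged peaks of Vamp5, Tpm2, Tgfb3, Arhgap11a, Dek, Ranbp1 or Pabpc1 passed the test of strength (limma, adjusted p of 0.99 or more).

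Of 229 genes in 10 lists of pathways, 211 had a peak somewhere, 60 had a 5' UTR peak in at least 1 list and 14 in all 4. Over all 9153 genes with a peak these numbers were 1206 and 262. Among 24 myogenic regulators 6 had such a peak, and it was in all 4 lists for Myod1 and Mef2a. Myod1, the myoblast determination factor, had folds of 3.36 and 1.75 in GM and of 2.55 and 2.95 in 3d DM at chr7:46376563-46377124, always over 5' UTR and CDS and with no other peak, and its input value did not change at the threshold (1713 and 1129, then 1016 and 1645). Mef2a, a partner of the myogenic factors, had 4.32 and 3.39 and then 3.00 and 3.92, with input values of 636 and 386 in GM, then 1002 and 1645 in 3d DM (difference -1.37, SE 0.43; limma, adjusted p = 0.012). Mef2c, with a peak in 3 lists at folds of 13.1, 13.8 and 5.49 (none in GM replicate 2), rose from 81.0 and 68.2 to 2742 and 2182 in 3d DM (limma, adjusted p = 8.7e-27). Of the 6 regulators, Mef2a and Mef2c were higher in 3d DM, Id1 was higher in GM, and Six4, Tcf4 and Myod1 did not pass the test. Over all 11406 genes 17.0% were called in either direction.

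Among 18 contractile genes 7 had a 5' UTR peak, none of them in all 4 lists. All 7 were higher in 3d DM, as were all 18 of the list, beside 7.01% of all 11406 genes. Tnnt1, the slow troponin T, had folds of 6.04, 4.47 and 4.53 and Tnnt2, the cardiac form, of 9, 4.77 and 5, in each case with none in GM replicate 1. Des, the muscle intermediate filament, had 3.52, 1.44 and 2.49, also without GM replicate 1, and rose from 12764 and 5945 to 21225 and 23528. Actn2 had a peak in 3d DM replicate 1 only, and Myl4 in replicate 1 of both states. Of 23 cell cycle genes 20 had a peak somewhere, and 2 of these, Ccnd2 and Cdkn2c, had a 5' UTR peak, beside 1206 of 9153 over all genes. Of the 23 genes 17 changed in input RNA, 13 towards GM and 4 towards 3d DM, beside 17.0% of all 11406 genes in either direction. Ccnd2 and Cdkn2c did not pass that test.

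In signalling, 15 of 37 genes of the Notch, Wnt and TGF-beta pathways had a 5' UTR peak in some list. Of these 15, 2 were called, both higher in 3d DM, beside 17.0% of all tested genes called in either direction. These were Tgfb3 and the Notch ligand Dll1, with folds of 6.65, 3.64 and 4.38 (none in GM replicate 1). Tgfb1 had folds of 6.22, 6.65, 4.53 and 5.37, close to those of Tgfb3, and its input values overlapped between the states (557 and 374, then 388 and 611). Of 25 genes of growth factor and mTOR signalling 8 had such a peak, and the lowest adjusted p among the 7 tested was 0.17, for Irs1 (limma).

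Of 19 translation initiation genes 9 had a 5' UTR peak. It was in all 4 lists for Eif2s2 (6.98, 3.75, 6.93 and 4.84), Eif5b (10.1, 5.48, 8.12 and 8.55) and Pabpc1, of which only Pabpc1 was called. Stress genes with a peak in all 4 lists were Hsp90ab1, a chaperone (6.24, 3.53, 5.30 and 4.92), and Atf5, a factor of the stress response whose mRNA is known for upstream reading frames (5.90, 9, 3.17 and 12.5). Jun, an AP-1 factor, had 10.5 and 10.2 in GM, then 3.25 and 4.41 in 3d DM on its 5' UTR lines, which did not overlap. The same merged Jun peak had 10.5, 10.2, 8.32 and 9.89 over all its lines, where the 3d DM values come from lines labelled outside the 5' UTR.

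Among 23 m6A and m6Am proteins 5 had a 5' UTR peak and only Ythdc1, the nuclear m6A reader, had it in all 4 lists, with folds of 12.7 and 12.1 in GM, then 7.47 and 7.82 in 3d DM. The states did not overlap for Ythdc1, but its merged peak did not pass the test (merged folds 19.2, 12.1, 7.47 and 7.82, difference 1.00, SE 0.60; limma, adjusted p = 0.99). Wtap and Zc3h13 of the writer complex, Mettl4 and the reader Ythdf3 each had it in a single list. The chromatin regulators Brd2 (2.94, 2.92, 2.23 and 2.44) and Chd4 (5.87, 5.33, 5.73 and 7.47) had it in all 4 lists. Among genes with a 5' UTR peak the lowest adjusted p of input RNA was 0.58 in the m6A list (Wtap) and 0.37 in the chromatin list (Brd2; limma).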

How the data were processed

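MeRIP-seq and input libraries of C2C12 cells in GM and 3d DM were analysed, with 4 groups of 2 and groups taken from the labels. Per the study's methods, the authors aligned reads with HISAT2 2.1.0 to mm10 and called peaks with exomePeak for each IP library against its input. The deposited p-value is that of exomePeak (largest in the lists 0.0107), and the deposited fold enrichment is the ratio of IP over input. The deposited expression table holds a signal normalized by the authors with edgeR (TMM) per gene. It keeps no depth, and limma p-values on it borrow the spread across genes. No column was left unmapped.

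Lines of the same strand sharing at least 1 exonic base were merged across lists. Peaks were placed on GENCODE release M21 models, and sequence was read from mm10. Strength (log2 of the largest fold) and input RNA (log2 of value + 1, for values of at least 25.1 in 2 libraries) were fitted with limma 3.58.1 (R 4.3.3, trend, Benjamini-Hochberg adjustment). Single values were tested with two-sided exact permutation or sign-flip tests (Python 3.11.15, scipy 1.17.1). Scripts were tested on simulated data.

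Named genes were (a) the 10 with the highest geometric mean 5' UTR fold among those in all 4 lists, (b) the 4 merged peaks of lowest p per direction of strength, (c) the 4 genes of highest mean fold per state among those in both lists of that state only, (d) the 4 largest input changes per direction among genes in all 4 lists with a mean of at least 100, and (e) members of 10 gene lists found in all 4 lists, of which 1 is not reported here. Symbols of the Gm or Rik form were passed over in (a) to (d). Members and lists were chosen with earlier results of these data known. Alternatives covered peak unit, thresholds, normalization, pseudocount, filter, replicate block and each library left out. The GGCA pattern, the merged unit for motifs and first bases, the 5' UTR label in all 4 lists and the p threshold for recurrence were added after seeing the data.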

Additional observations from a re-analysis of the deposited data

How the results depend on the processing

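The exact tests of share, fold, width and motif ratio could not pass the threshold in any setting. Their smallest possible p was 0.33 (2 libraries against 2) or 0.13 (sign flips over 4 libraries), so only direction was compared. Taken as the mean over libraries, the share, the fold difference, the width and the motif ratio kept their direction under the alternatives run, apart from the width exception below. Single libraries did not always do so for fold. In GM replicate 1 and 3d DM replicate 1 the log2 fold difference was -0.03 and -0.11 for 5' UTR alone. At a peak p under 1e-05 it was -0.05 and -0.003 there. Replicates 2 of both states stayed above 0 in both settings. Strength changes stayed uncalled. The exceptions and larger moves were the following. The width log2 ratio was -0.67 for 5' UTR alone. The DRACH log2 ratio fell from 0.29 to 0.09 over the whole peak. The share starting in the first 50 nt (0.80 points higher in GM) ranged from -0.44 without 3d DM replicate 1 to 2.04 without 3d DM replicate 2, and the median input RNA difference from -0.058 to 0.47 without the same libraries. Calls of input RNA among members (193) became 298 with median-of-ratios rescaling and 20 to 109 with a library left out. Without 3d DM replicate 1, 39 of 49 named calls lost significance, 10 kept it and none reversed. Genes in all 4 lists fell from 262 to 163 at a peak p under 1e-05. The causes were not tested, apart from the loss of a library or of lines.

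The replicate numbers are not stated to pair libraries, and deviations of same-numbered libraries correlated with r = 0.25 over 567 merged 5' UTR peaks and r = 0.29 over 11406 genes, with 2 pairs. With a replicate block 124 members were called (51 and 73), beside 1298 of all 11406 genes. These held 11 in each set of genes of 1 state and 15 of those in all 4 lists, and 12 of 49 named calls lost significance. Strength gave 0 calls with the block. IP depth is unknown, so a peak not called is not shown to be absent.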
